A study of Mus musculus with 6 samples.

Results

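Transcripts of Mcph1, which encodes microcephalin, and of 9 other genes were followed in mouse hematopoietic stem cells labelled as Mcph1-/- or wild type. Loss of any of these genes causes primary microcephaly or a related small-brain disorder in humans. The genes are Mcph1, Plk4, Sass6, Cep63, Cep152, Cep135, Pcnt, Cdk5rap2, Aspm and Knl1. They were chosen by name for their disease class and their part in centriole duplication, and all 10 were found by symbol among the 11108 genes of the deposited table. Stem cells were sorted from the bone marrow of Mcph1-/- and wild-type (WT) mice as lineage-negative cells with Sca-1 and c-Kit that carried CD150 and lacked CD34. There were 3 Mcph1-/- and 3 WT libraries, each from 200 such cells, prepared by the Smart-seq2 protocol, which amplifies whole transcripts from small inputs. The labels give no strain, age, sex or allele, and do not say which part of Mcph1 was deleted or in which cells. Whether replicates were taken from different animals is also unstated, so the tests see only library-to-library spread, part or all of which may be technical.

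A cell copies its centriole pair once per division. The kinase Plk4, placed on the parent centriole by Cep152 and Cep63, starts a new centriole whose cartwheel is built of Sass6 and joined to the microtubule wall by Cep135. Pcnt and Cdk5rap2 then gather the pericentriolar material that anchors gamma-tubulin and nucleates spindle microtubules, Aspm focuses the spindle poles, and Knl1 is the kinetochore scaffold that binds microtubules and calls in the checkpoint kinase Bub1. Microcephalin holds back condensin II, so that chromosomes do not condense before mitosis, and takes part in the DNA damage response. In stem cells of the bone marrow, most of which are quiescent, transcripts of division genes are usually scarce.

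RefSeq promoter windows (GRCm38.p6), running from 250 bases before to 50 bases after an annotated start, were at hand for 9 of the 10 genes, all but Mcph1. They were searched on both strands for 3 short motifs of cell cycle promoters: the CHR element TTTGAA, the E2F core GCGGGAA and the CCAAT box, which do not share letters where they matched. The CHR letters were in 4 of the 9 windows (Aspm, Cdk5rap2, Sass6 and Knl1) and in 17.9% of all 32851 windows. The E2F core was in 3 of the 9 (Cep152, Pcnt and Plk4) and in 4.6% of all windows, and the CCAAT box was in 4 of the 9 (Aspm, Cep135, Cep152 and Pcnt) and in 37.4% of all windows. The 30-base stretches around the matches are shown on the gene's strand because they set apart the genes with each motif. Capitals mark the CHR letters in the Knl1, Aspm, Cdk5rap2 and Sass6 lines, and the E2F core or its reverse complement in the others.
Knl1, chr2:119047138-119047167: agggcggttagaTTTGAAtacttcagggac
Aspm, chr1:139454767-139454796: ggaggcgcgataTTTGAAccgagcaaaagc
Cdk5rap2, chr4:70410392-70410421: cggcggctgcggTTTGAAttccagcggcgc
Sass6, chr3:116594787-116594816: acgctgggtcctTTTGAAagcctggctcag
Plk4, chr3:40799819-40799848: aaaagactttctGCGGGAAgccaaagccct
Cep152, chr2:125625270-125625299: gctccgggaagcTTCCCGCcgccactggcg
Pcnt, chr10:76442914-76442943: tttgtccaaaccTTCCCGCcgcccagtcga

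The 250 bases before the annotated start are given for Aspm and Knl1, the genes whose values did not overlap between genotypes, with CCAAT boxes in capitals as their reverse complement. The Aspm stretch holds 3 of them and the Knl1 stretch holds none, and neither stretch holds the CHR letters, which lie just past the start in both genes. A match is a run of letters, not evidence of binding.
Aspm, chr1:139454523-139454772, plus strand: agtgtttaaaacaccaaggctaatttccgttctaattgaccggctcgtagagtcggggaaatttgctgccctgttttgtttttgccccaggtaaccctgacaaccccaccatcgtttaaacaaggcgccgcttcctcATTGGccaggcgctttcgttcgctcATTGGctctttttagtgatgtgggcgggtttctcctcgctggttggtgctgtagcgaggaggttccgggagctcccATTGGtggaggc
Knl1, chr2:119046869-119047118, plus strand: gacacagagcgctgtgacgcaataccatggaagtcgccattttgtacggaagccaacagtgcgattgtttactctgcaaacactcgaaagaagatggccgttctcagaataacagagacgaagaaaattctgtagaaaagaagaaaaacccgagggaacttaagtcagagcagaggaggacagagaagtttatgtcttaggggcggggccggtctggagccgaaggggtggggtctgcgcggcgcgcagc

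Mcph1-/- libraries held 9464810 to 10455908 reads on the listed genes and WT libraries 8102605 to 8655123, so every WT library was shallower. Reads were found for 10516 to 10777 genes in Mcph1-/- libraries and for 10209 to 10335 in WT libraries. Values are normalised read counts, meaning reads divided by 1 size factor per library, in which 1 read is worth 0.82 to 1.08. Differences were tested with limma on log2(value + 1) across 10846 genes with Benjamini-Hochberg adjustment, at a threshold of 0.05, and a log2 fold change is Mcph1-/- over WT. Genes of the sort and of stem cell identity were present: Kit, Ly6a (Sca-1), Procr, Hlf and Mecom were read in every library at 262.7 or more. Slamf1, which encodes CD150, was uneven, with 65.7, 395.4 and 0.89 in Mcph1-/- replicates 1 to 3 and 0, 223.6 and 497.0 in WT replicates 1 to 3, and Cd34 was read in every library (207.5 to 569.2 in Mcph1-/- and 200.9 to 529.4 in WT) although the cells were sorted without its protein. Exons of Mecom and Cd34 overlap genes on the other strand. Cd48, a surface marker of more committed progenitors, stood at 296.5 to 1153 in Mcph1-/- libraries and 2.17 to 119.5 in WT libraries (limma adjusted p = 0.626). The sum of 6 neutrophil markers was 296 to 13265 in Mcph1-/- libraries and 52138 to 65421 in WT libraries, while that of 7 erythroid markers was 28115 to 35867 in Mcph1-/- libraries and 2804 to 15951 in WT libraries. S100a8, S100a9, Ngp and Camp were lower in every Mcph1-/- library than in any WT library (limma adjusted p = 3.9e-04, 0.024, 0.0037 and 0.06). S100a8 stood at 152.7 to 327.3 in Mcph1-/- libraries and 17462 to 30971 in WT libraries. Of the neutrophil markers, Mpo and Elane overlapped between genotypes. In Mcph1-/- replicate 3 they stood at 4856 and 8095, the larger part of its neutrophil sum. Most of the erythroid sum in Mcph1-/- was Car1, a carbonic anhydrase (23716 to 31845 in Mcph1-/- and 1628 to 4566 in WT; limma adjusted p = 0.024). The other 6 erythroid markers summed to 4022 to 4752 in Mcph1-/- and 827 to 11385 in WT, which overlapped, and among them Hba-a1 was lower in every Mcph1-/- library (55.0 to 185.2) than in any WT library (251.4 to 8516). Epor and Tfrc had lower means in Mcph1-/-, with ratios of 0.71 and 0.77. The part these other lineages have in the results below was not tested.

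Mcph1 transcripts were present in libraries of both genotypes, at levels that varied more within a genotype than between them. Its normalised read count was 427.8, 37.7 and 233.9 in Mcph1-/- replicates 1 to 3, from 469, 46 and 262 reads, and 160.5, 341.0 and 34.4 in WT replicates 1 to 3, from 148, 331 and 34 reads. Mcph1-/- replicate 2 and WT replicate 3 were low, the other 4 libraries were high, and the genotypes overlapped. The log2 fold change was 0.33 (SE 1.25; limma adjusted p = 0.958), with a 95% interval of -2.54 to 3.21, and was -0.39 without Mcph1-/- replicate 1 and -0.58 without WT replicate 3. Its 16 exon blocks span 18595131 to 18803189 of chromosome 8 (mm10, plus strand) and overlap the antisense gene Gm16725, whose reads cannot be told apart without a stated strand setting. Since the extent of the deletion is unknown, reads summed over all exons are no test of the genotype, which rests on the label throughout.

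The genes nearest to Mcph1 in pattern were high and low in the same libraries, which follows from their choice over these libraries. Nearness was the root mean square difference of log2(value + 1), centred on each gene's mean, over the 6 libraries, among 8729 other protein-coding genes with a mean of at least 50. The nearest were Mapk12, a stress-activated kinase (0.36), Csf2ra, a chain of the GM-CSF receptor (0.37), Grhpr, a glyoxylate reductase (0.37), Camkk2, a calcium-dependent kinase (0.40), and Eif4enif1, which binds the cap-binding protein eIF4E (0.45), where the median over all genes compared was 1.71. All 5 were lowest in Mcph1-/- replicate 2 and WT replicate 3, and none is a microcephaly gene of the lists used here.

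**Figure D1:**
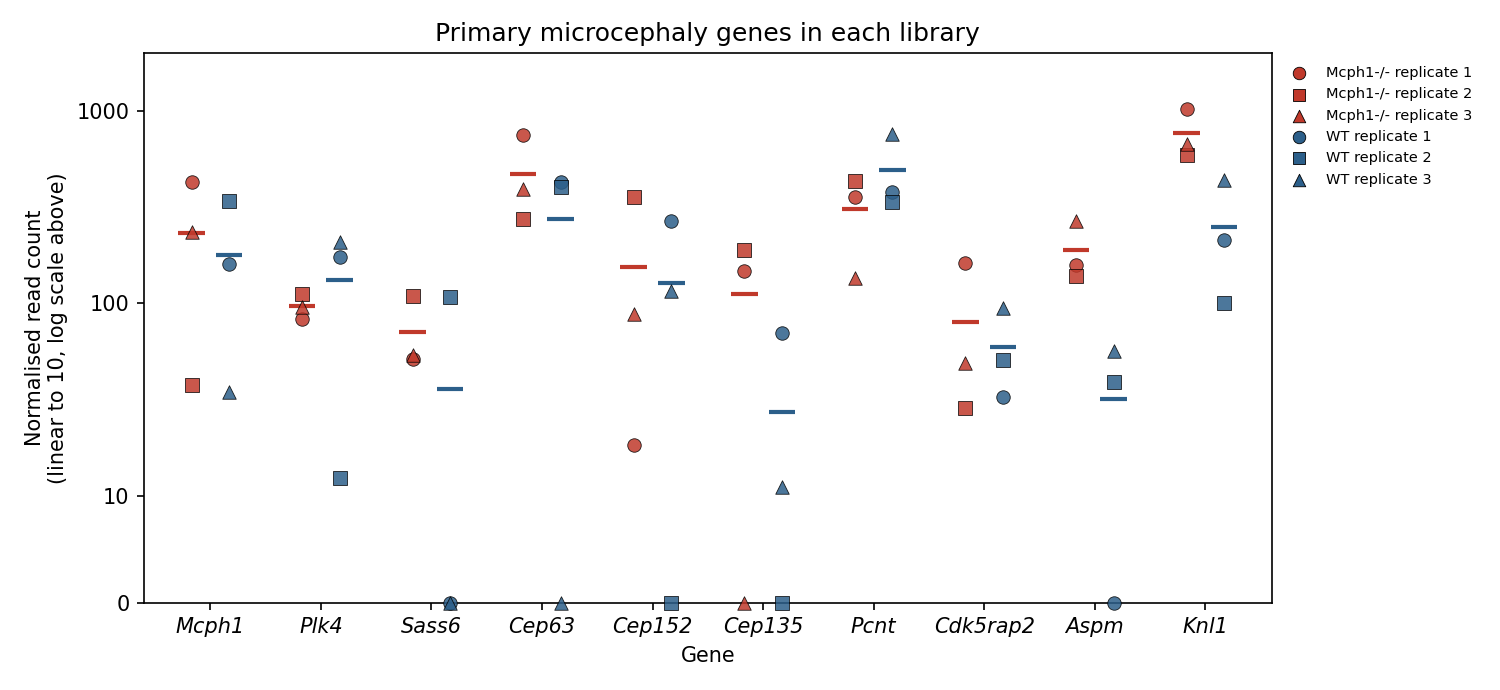
Normalised read count of each gene (y axis, linear to 10 and logarithmic above) in the 3 Mcph1-/- libraries (red, left) and the 3 WT libraries (blue, right), with marker shape for the replicate and a bar for the mean. The Mcph1-/- points of Aspm and Knl1 all lie above the WT points, and 1 Mcph1-/- point and 6 WT points lie at 0.

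Plk4, the kinase that starts centriole duplication, was steady in the Mcph1-/- libraries and scattered in WT. It stood at 83.0, 111.6 and 95.5 in Mcph1-/- replicates 1 to 3 and at 174.6, 12.4 and 208.5 in WT replicates 1 to 3, so the WT values lay on either side of the Mcph1-/- range. The log2 fold change was 0.30 (SE 1.33; limma adjusted p = 0.965) although the mean value was lower, at 96.7 ± 14.3 in Mcph1-/- and 131.8 ± 104.8 in WT (SD, n = 3 each). It turned to -0.98 without WT replicate 2, the low library.

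Sass6, the cartwheel protein, had 51.1, 109.1 and 53.6 in Mcph1-/- replicates 1 to 3, and 0, 108.2 and 0 in WT replicates 1 to 3. WT replicate 2 stood nearly as high as the highest Mcph1-/- library, and a WT library with no reads could still hold 3 reads' worth, a value of 3.04 to 3.25. The log2 fold change was 3.83 (SE 2.14; limma adjusted p = 0.667), while the ratio of the means was 1.98, since the log scale spreads the WT libraries at 0 farthest from the rest. Without WT replicate 2 the Sass6 estimate was 6.09 (limma unadjusted p = 0.00878, adjusted p = 0.509), and without WT replicate 1 or 3 it was 2.70. Exons of Sass6 overlap Trmt13 and Gm42893 on the other strand, so its reads are uncertain.

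Cep63 and Cep152, which form a ring around the parent centriole, were highest in different Mcph1-/- libraries, while in WT both were highest in replicate 1. Cep63 was read at 749.8, 274.8 and 391.1 in Mcph1-/- replicates 1 to 3 and at 425.1, 401.8 and 0 in WT replicates 1 to 3. Outside the WT library at 0, the genotypes overlapped. Cep63 had an estimate of 2.96 on the log2 scale (SE 2.17; limma adjusted p = 0.726), which was 0.06 without WT replicate 3. Cep63 overlaps Anapc13 on the other strand and is uncertain. Cep152 ranged more widely, with 18.2, 356.0 and 87.5 in Mcph1-/- replicates 1 to 3 and 266.8, 0 and 115.4 in WT replicates 1 to 3. The highest Cep152 value was in Mcph1-/- replicate 2, where Cep63 was lowest among the Mcph1-/- libraries. Its log2 fold change was 1.43 (SE 2.29; limma adjusted p = 0.878) and turned to -1.06 without WT replicate 2, the library at 0.

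Cep135, which ties the cartwheel to the centriole wall, was read in 4 of 6 libraries. It had 146.9, 190.3 and 0 in Mcph1-/- replicates 1 to 3, and 70.5, 0 and 11.1 in WT replicates 1 to 3. Each genotype thus held a library with no reads, and the log2 fold change was 1.68 (SE 2.57; limma adjusted p = 0.872). It was 0.05 without WT replicate 2 and 4.14 without Mcph1-/- replicate 3, which are the libraries at 0.

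Pcnt, pericentrin, was the 1 gene of the 10 with a negative log2 fold change. Its values were 356.7, 434.8 and 135.7 in Mcph1-/- replicates 1 to 3, and 380.6, 335.9 and 757.2 in WT replicates 1 to 3. Mcph1-/- replicate 3 was the lowest, WT replicate 3 the highest, and the other 4 lay between. The log2 fold change was -0.73 (SE 0.61; limma adjusted p = 0.749), with a 95% interval of -2.13 to 0.67. It was -0.22 without Mcph1-/- replicate 3 and -0.37 without WT replicate 3, and Pcnt shares exonic sequence with 1700094J05Rik and AC141477.1. Cdk5rap2, its partner in the pericentriolar material, had 162.4, 28.7 and 49.1 in Mcph1-/- replicates 1 to 3, and 32.5, 50.5 and 94.1 in WT replicates 1 to 3. Mcph1-/- libraries held both the highest and the lowest Cdk5rap2 value, and its log2 estimate, 0.19 (SE 1.30; limma adjusted p = 0.979), was -0.51 without Mcph1-/- replicate 1 and -0.17 without WT replicate 1. Exons of Cdk5rap2 overlap the pseudogene Ywhaq-ps3 on the same strand, so its reads are uncertain.

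Aspm and Knl1, which act on the spindle, were the genes whose Mcph1-/- libraries all stood above all WT libraries. Aspm had 158.7, 139.5 and 267.0 in Mcph1-/- replicates 1 to 3, and 0, 39.1 and 56.7 in WT replicates 1 to 3. It averaged 188.4 ± 68.7 in Mcph1-/- and 31.9 ± 29.0 in WT (SD, n = 3 each), a ratio of means of 5.90, and the log2 fold change was 3.78 (SE 1.80; limma adjusted p = 0.662). Without WT replicate 1, the library at 0, the Aspm log2 fold change was 1.92. Knl1 had 1028, 592.3 and 672.3 in Mcph1-/- replicates 1 to 3, and 212.6, 99.9 and 439.3 in WT replicates 1 to 3. The lowest Mcph1-/- library was above the highest WT library without any value at 0, and the means were 764.2 ± 232.0 in Mcph1-/- and 250.6 ± 172.9 in WT (SD, n = 3 each). The log2 fold change was 1.81 (SE 0.60), the 95% interval of 0.42 to 3.20 did not span 0, and the gene did not pass over all genes (limma adjusted p = 0.626; DESeq2 adjusted p = 0.092). In mm10 Knl1 spans 119047119 to 119105501 of chromosome 2 and Aspm 139454772 to 139494091 of chromosome 1, each on the plus strand, and neither shares exonic sequence with another gene.

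**Figure D2:**
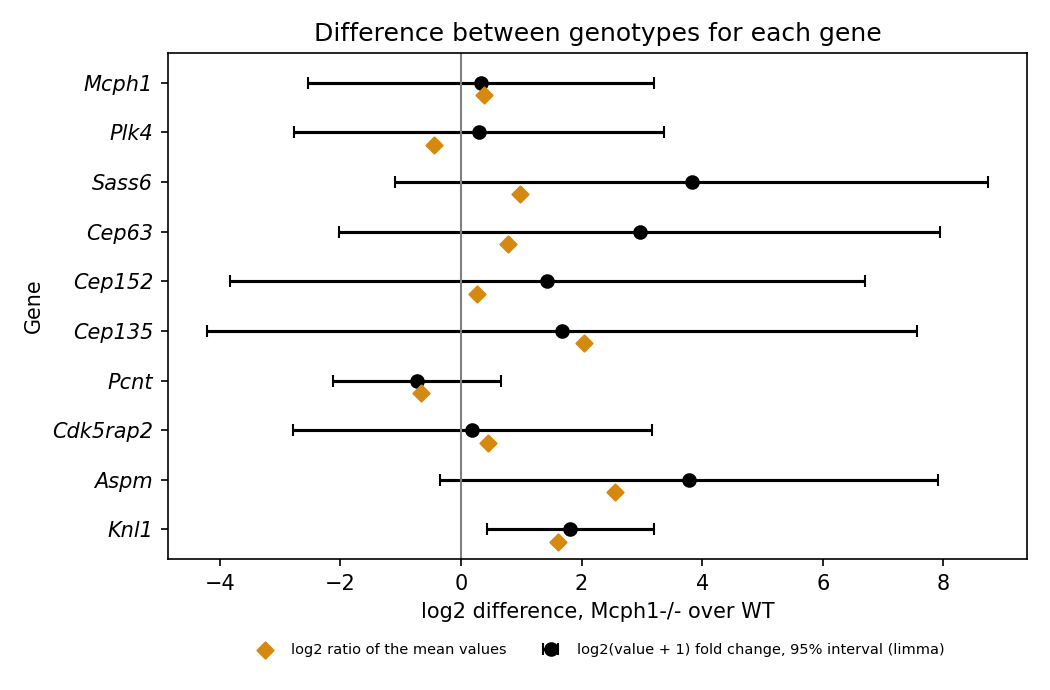
log2 difference (x axis, Mcph1-/- over WT) of each gene, as the limma estimate on log2(value + 1) with its 95% interval (black) and as the log2 ratio of the mean values (orange). The interval of Knl1, from 0.42 to 3.20, is the 1 that does not span 0, and for Sass6, Cep63 and Aspm the ratio of means lies well below the estimate.

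None of the 10 genes passed the threshold by limma, where 0.0369% of all tested genes did in either direction, and none passed by edgeR or limma-voom. DESeq2 gave an adjusted p for 3 of the 10 (Cep63, Pcnt and Knl1), none of which passed. At an unadjusted p under 0.05 there was 1, Knl1, where 7.71% of tested genes reached that level. The genotypes did not overlap for 2 of the 10, each higher in Mcph1-/-, and 7.4% of tested genes had all Mcph1-/- libraries above all WT libraries. The log2 fold change was positive for 9 of the 10, against 53.8% of tested genes, with a median of 1.55, against 0.08 over all tested genes. By mean values 8 were higher, with a median ratio of 1.53, or 0.62 on the log2 scale. The median was 0.60 without WT replicate 2, 1.06 and 1.03 without Mcph1-/- replicate 1 and 2, 0.83 with a pseudocount of 16, 0.63 by edgeR and 0.60 by DESeq2. Intervals were wide, over 4 log2 units for 8 of the 10 genes, so a several-fold difference in either direction was not detectable for these genes at this depth and number of libraries. In libraries of pooled cells, fewer cells that transcribe a gene and less RNA per cell cannot be told apart.

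A value of 0 in a WT library by itself raises the log2 fold change on the log2(value + 1) scale, so the following is a description. The 5 genes with a library at 0 (Sass6, Cep63, Cep152, Cep135 and Aspm) had log2 fold changes of 1.43 to 3.83, and the 5 read in every library (Mcph1, Plk4, Pcnt, Cdk5rap2 and Knl1) had -0.73 to 1.81 with a median of 0.30. Of the 30 values in each genotype, 1 was 0 in Mcph1-/- (3.33%) and 6 were 0 in WT (20%), while over all tested genes 3.87% of values in Mcph1-/- and 7.31% in WT were 0. These shares over all genes are not matched for level. Every WT library also held fewer reads than any Mcph1-/- library, and the part of depth in the zeros was not tested. By mean value Sass6, Cep135, Aspm, Cep152 and Cep63 stood above 11.3%, 15.2%, 24.9%, 31.3% and 58.8% of the listed genes. The table lists only genes with reads in at least 4 of the 6 libraries, a limit that Sass6 and Cep135 just met. Spread within a genotype, as the pooled SD of log2(value + 1), was above the median of genes with a mean within 1.5-fold for 6 of the 10 and below it for 4. Cep63 had an SD of 3.59 where the like-level median was 0.82, and Cdk5rap2 an SD of 1.04 where it was 2.66.

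The libraries did not rank alike from gene to gene. Mcph1-/- replicate 1 was the highest library for Mcph1, Cdk5rap2, Cep63 and Knl1, Mcph1-/- replicate 2 for Cep135, Cep152 and Sass6, and Mcph1-/- replicate 3 for Aspm. WT replicate 3 was the highest for Pcnt and Plk4. Summed over the 10 genes, the normalised read count was 3183, 2275 and 1986 in Mcph1-/- replicates 1 to 3, and 1723, 1389 and 1717 in WT replicates 1 to 3. The sums did not overlap between genotypes, but without Knl1 they did, at 2155, 1682 and 1313 in Mcph1-/- replicates 1 to 3 and 1511, 1289 and 1277 in WT replicates 1 to 3.

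Per kilobase of exon, Knl1 was the most abundant of the 10 in Mcph1-/- and Pcnt in WT. Mean normalised read counts per kb were 89.5 in Mcph1-/- and 29.3 in WT for Knl1, and 49.2 in Mcph1-/- and 28.7 in WT for Cep63. They were 25.4 in Mcph1-/- and 40.4 in WT for Pcnt, 29.9 in Mcph1-/- and 22.9 in WT for Mcph1, and 26.7 in Mcph1-/- and 22.1 in WT for Cep152. The remaining genes were lower, from 6.15 (Cdk5rap2) to 16.3 (Aspm) in Mcph1-/- and from 2.76 (Aspm) to 19.2 (Plk4) in WT. Within either genotype, the ranges of every pair of neighbours in this order overlapped, so the order of neighbours is not settled by 3 libraries.

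**Figure D3:**
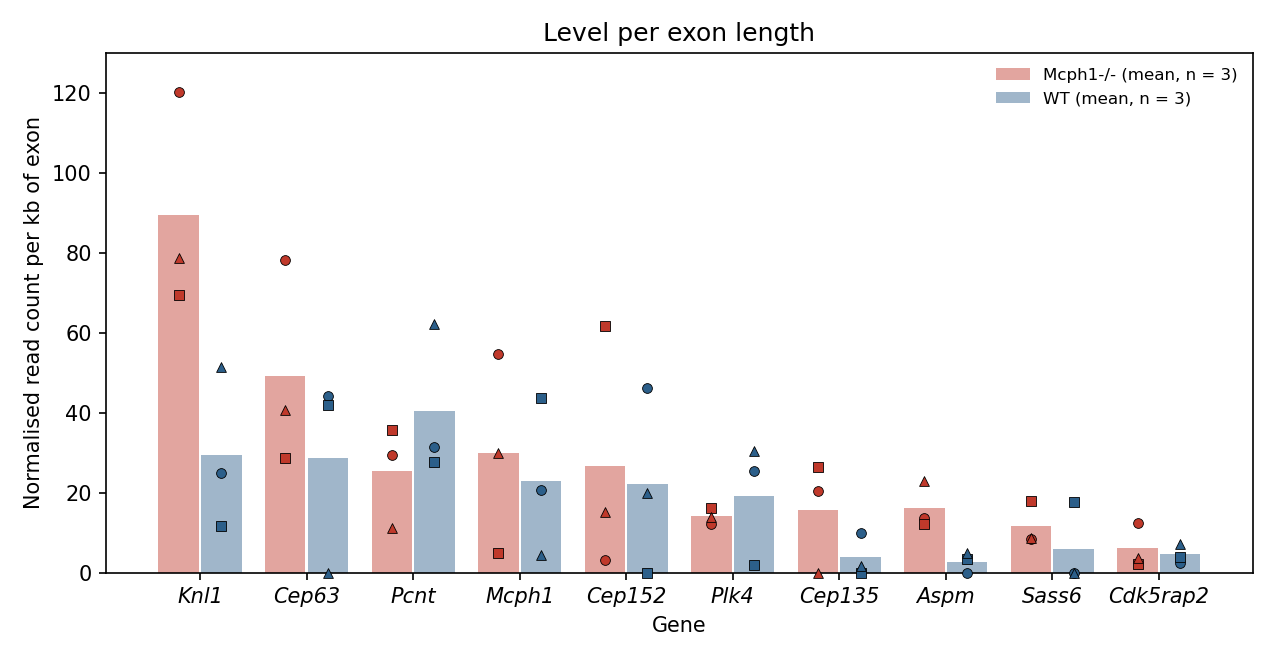
Normalised read count per kb of exon (y axis) for each gene, as the mean of 3 Mcph1-/- libraries (red bars, left) and 3 WT libraries (blue bars, right), with points for the libraries. Knl1 reaches 89.5 per kb in Mcph1-/- and 29.3 in WT, and Cdk5rap2 is low in both, at 6.15 in Mcph1-/- and 4.54 in WT.

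The genes nearest in pattern to Knl1 and Aspm had mixed roles. Nearest to Knl1 was Tpx2, a spindle assembly factor that activates Aurora A, at a root mean square difference of 0.19 (median over all genes compared 1.45), followed by Thumpd2 (0.25), Cab39l (0.38), the DNA break sensor Parp1 (0.38) and Srp72 of the signal recognition particle (0.39). Tpx2 stood at 888.5, 762.9 and 673.2 in Mcph1-/- replicates 1 to 3, and at 191.9, 91.7 and 421.1 in WT replicates 1 to 3, so its order over the libraries was that of Knl1 except between Mcph1-/- replicates 2 and 3. Nearest to Aspm were Ecm1 (0.42), Trdmt1 (0.44), Knstrn, a kinetochore and spindle protein (0.48), Zfp719 (0.55) and Tra2a (0.55), with a median over all genes compared of 2.82. Markers of dividing cells had values in the same direction. All 10 had a positive log2 fold change, with a median of 1.32, and their sum was 6349 to 9404 in Mcph1-/- libraries and 3697 to 4081 in WT libraries. Of these, 0 passed by limma, 5 had an unadjusted p under 0.05, where 7.71% of tested genes did, and Ccna2 and Ccnb1 passed by DESeq2 (adjusted p = 7.9e-04 and 0.037), Ccna2 with exons that overlap Exosc9. DESeq2 gave an adjusted p for all 10, and over all genes it called 2.16% of those tested, or 4.36% of the 5369 to which it gave an adjusted p. Their part in the values of Knl1 and Aspm was not tested.

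**Figure D4:**
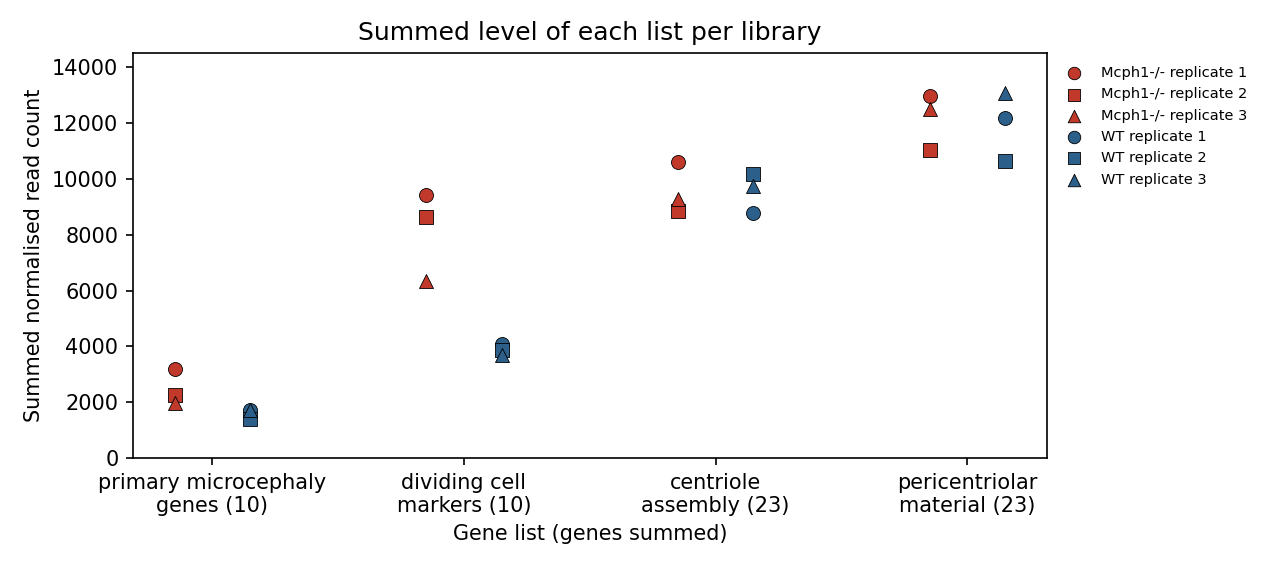
Summed normalised read count per library (y axis) for 4 gene lists, in Mcph1-/- libraries (red, left) and WT libraries (blue, right), with marker shape for the replicate. The dividing cell markers separate the genotypes, at 6349 and above in Mcph1-/- and 4081 and below in WT, while the centriole assembly and pericentriolar lists overlap.

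Genes that work beside Knl1 had mostly positive log2 fold changes, and 0 of them passed by limma or, of the 5 with an adjusted p, by DESeq2. Of 10 tested partners of Knl1 in the kinetochore, 9 had a positive log2 fold change, with a median of 1.52, 1 had an unadjusted p under 0.05, and 6 had all Mcph1-/- libraries above all WT libraries. The shares over all tested genes were 53.8%, 7.71% and 7.4%. Spc25, of the Ndc80 complex, had 1026, 840.0 and 488.4 in Mcph1-/- replicates 1 to 3 and 377.4, 107.1 and 316.8 in WT replicates 1 to 3 (log2 fold change 1.67, SE 0.59; limma adjusted p = 0.626). Ndc80 and Nuf2 of the same complex had ratios of means of 4.61 and 3.86, each with a WT library at 0, and Pmf1 of the Mis12 complex had 1.38. Spc24 (1.79) overlapped between genotypes. Bub3, a checkpoint protein, was the 1 partner with a negative log2 fold change (-0.44), with a ratio of means of 0.75. Summed over the 10 partners, the level was 12681 to 14080 in Mcph1-/- libraries and 11109 to 13085 in WT libraries, which overlapped.

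Further loci of primary microcephaly had mostly positive log2 fold changes. Of 23 on the list, 19 were tested, 14 with a positive and 5 with a negative log2 fold change, with a median of 0.98, and 3 had an unadjusted p under 0.05 (53.8% positive and 7.71% under 0.05 over all tested genes). Wdr62, Stil, Cenpj and Mfsd2a were not analysed here. By limma 0 passed, and by DESeq2 Cdk6 and Copb2 did (adjusted p = 2.2e-05 and 0.036), of the 7 loci to which it gave an adjusted p. Over all genes with an adjusted p, DESeq2 called 4.36%. Cdk6, a kinase of the G1 phase, had 2576, 3389 and 2467 in Mcph1-/- replicates 1 to 3 and 1453, 1187 and 1087 in WT replicates 1 to 3 (log2 fold change 1.17, SE 0.23; limma adjusted p = 0.361). Its values did not overlap between genotypes, and its exons overlap the antisense gene Gm17590. Copb2, a coat protein of Golgi vesicles, had 1082, 1581 and 1395 in Mcph1-/- replicates 1 to 3 and 529.2, 862.3 and 678.2 in WT replicates 1 to 3 (log2 fold change 0.98, SE 0.30; limma adjusted p = 0.617). The kinase Bub1 and the ESCRT partner Pdcd6ip also did not overlap, with ratios of means of 3.41 and 2.14, while Nup37 (1.87) overlapped. Bub1 was also on the list of Knl1 partners. Over all tested genes 7.4% had all Mcph1-/- libraries above all WT libraries. Zfp335, a zinc finger protein whose exons overlap Pcif1 and Zfp335os on the other strand, was lower by its mean, with 2.74, 102.5 and 0 in Mcph1-/- replicates 1 to 3 and 611.6, 139.1 and 97.2 in WT replicates 1 to 3 (log2 fold change -4.80, SE 1.98; limma adjusted p = 0.642).

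Centriole and centrosome genes as wider lists had median log2 fold changes near that of all tested genes, 0.08. Over all tested genes 53.8% had a positive log2 fold change and 7.71% an unadjusted p under 0.05. All Mcph1-/- libraries stood above all WT libraries for 7.4% of tested genes, and DESeq2 called 4.36% of genes with an adjusted p. The centriole assembly and satellite list had 23 tested genes, 14 with a positive log2 fold change, a median of 0.12 and 0 past the threshold by limma, edgeR or DESeq2 (which gave an adjusted p for 8), with 1 at an unadjusted p under 0.05. No gene of that list separated the genotypes. Poc5, a protein of the centriole lumen, had the smallest p, with 57.5, 279.7 and 271.4 in Mcph1-/- replicates 1 to 3 and 0, 69.0 and 0 in WT replicates 1 to 3 (log2 fold change 5.32, SE 2.06; limma adjusted p = 0.626), and its exons overlap Ankdd1b. Ratios of means were 1.67 for Poc1a, 0.44 for Spice1 and 0.53 for Cep72, and Poc1a and Cep72 had log2 fold changes of 3.68 and 3.02 with WT libraries at 0. The pericentriolar list had 23 tested genes, 15 with a positive log2 fold change, a median of 0.21, 0 past the threshold by limma and 3 at an unadjusted p under 0.05. Haus7 of augmin and the centrosome proteins Cep170 and Pde4dip had ratios of means of 0.58, 12.9 and 2.96, and Cep170 and Pde4dip each had a WT library at 0. Haus3, of the augmin complex that branches spindle microtubules, had 905.8, 796.5 and 1030 in Mcph1-/- replicates 1 to 3 and 439.2, 344.1 and 434.3 in WT replicates 1 to 3 (log2 fold change 1.17, SE 0.32; limma adjusted p = 0.566; DESeq2 adjusted p = 0.0041). It was the 1 gene that passed by DESeq2 of the 13 on the list with an adjusted p, and it shares exonic sequence with Poln. Cep250, the linker that holds the centrosome pair together, was lower by its mean, with 292.8, 75.5 and 209.8 in Mcph1-/- replicates 1 to 3 and 806.8, 297.7 and 665.1 in WT replicates 1 to 3 (log2 fold change -1.69, SE 0.69; limma adjusted p = 0.639). Its lowest WT value exceeded the highest Mcph1-/- value by a narrow margin, and 6.8% of tested genes had all WT libraries above all Mcph1-/- libraries.

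Genes tied to microcephalin itself were mixed. Of 12 genes of condensin, the checkpoint and other reported partners, 10 were tested, 7 with a positive log2 fold change and a median of 1.01, 0 past the threshold by limma and 4 at an unadjusted p under 0.05. Over all tested genes 53.8% were positive and 7.71% reached that p. DESeq2 gave an adjusted p for 7 of the 10 and called 1, Set, where it called 4.36% of all genes with an adjusted p. Set, an inhibitor of protein phosphatase 2A, had 5880, 7055 and 6521 in Mcph1-/- replicates 1 to 3 and 5148, 4276 and 4073 in WT replicates 1 to 3 (log2 fold change 0.53, SE 0.16; limma adjusted p = 0.603; DESeq2 adjusted p = 0.017). Smc4, a core subunit shared by condensin I and II, had 2168, 1506 and 1164 in Mcph1-/- replicates 1 to 3 and 439.2, 878.8 and 1047 in WT replicates 1 to 3 (log2 fold change 1.08, SE 0.40; limma adjusted p = 0.626). The checkpoint kinase Chek1, the repair gene Brca2 and the histone gene H2ax had ratios of means of 8.04, 2.83 and 1.81, with 2 WT libraries of Chek1 at 0. Ncaph2 and Ncapd3, subunits of condensin II alone, had log2 fold changes of -0.77 and -0.50, and Ncapg2 and E2f1 were not analysed here. The genes of the response to centrosome loss, in which the p53 pathway stops the cycle, had a median of -0.10 over 8 tested, 3 of them positive, with 0 past the threshold by limma, edgeR or DESeq2 (adjusted p for 4) and 0 at an unadjusted p under 0.05 by limma. Trp53 had the smallest p of these (log2 fold change 0.35, SE 0.25; limma adjusted p = 0.720), with a ratio of means of 1.29. Cradd, Casp2 and Trp53bp1 had ratios of 0.65, 0.75 and 0.71. The p53 target Cdkn1a had 73.9, 72.2 and 100.9 in Mcph1-/- replicates 1 to 3 and 132.3, 8.24 and 377.6 in WT replicates 1 to 3. Exons of Cep170, Cep250, Brca2, H2ax, Ncaph2, Cradd, Trp53bp1 and Cdkn1a overlap genes on the other strand, and those of Pde4dip a microRNA gene on the same strand, so their reads are uncertain.

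**Figure D5:**
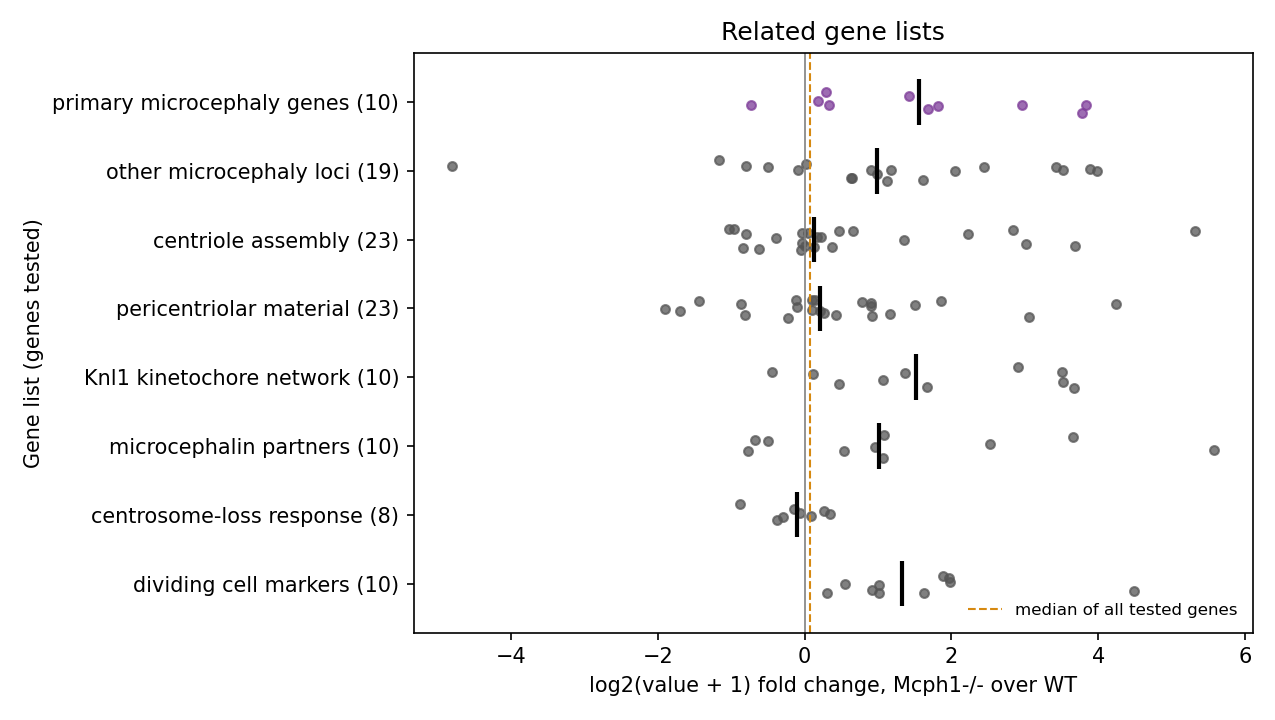
log2 fold change of each tested gene (x axis, Mcph1-/- over WT) in 8 gene lists (y axis), with a vertical bar at each list's median and a dashed line at the median of all tested genes, 0.08. The medians of the primary microcephaly genes (1.55), the Knl1 network (1.52) and the dividing cell markers (1.32) lie to the right, and those of centriole assembly (0.12) and the centrosome-loss response (-0.10) near the line.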

How the data were processed

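Libraries of 200 sorted cells were sequenced as 150-bp pairs (labels' protocols). Named without role or order in the submitters' processing notes are mm10, DESeq2, featureCounts, HISAT2 and Trim Galore 0.6.6. Annotation release and strandedness: not given in the sources used here. Deposited values are a signal, gene reads divided by 1 size factor per library, and 100% were whole multiples of the value of 1 read within 0.001 reads. Whole reads were therefore recovered for the count tests. Without molecular identifiers, limits from a count of 0 (3 reads) cover counting error only.

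Limma 3.58.1 (trend, log2(value + 1), genotype as the only term) was run where the mean value reached 10. Alternatives on recovered reads were edgeR 4.0.16 (quasi-likelihood, TMM), DESeq2 1.42.0 and limma-voom, all checked on simulated reads. Members, lists and tests were chosen with earlier results of these data known. Named genes are the 10 members, up to 4 per related list with the smallest p, up to 2 more whose groups do not overlap, and the 5 nearest in pattern to Mcph1, Knl1 and Aspm. Marker lists are given as sums or ranges. Ncaph2, Ncapd3, Cdkn1a and the single neutrophil and erythroid markers were named, and the erythroid sum without Car1 taken, after their values were seen. Exon lengths and overlaps come from GENCODE vM21 (96.2% of identifiers matched).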

Additional observations from a re-analysis of the deposited data

How the results depend on the processing

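No alternative brought any of the 10 genes past the threshold: other pseudocounts (0.5 and 16), no filter or a mean of at least 50, TMM scaling, edgeR, DESeq2, limma-voom, a replicate block, and leaving out each library. DESeq2 gave an adjusted p for 3 of the 10, and the others are not counted for it. DESeq2 called 2 further microcephaly loci, 1 pericentriolar gene and 1 microcephalin partner, where limma called 0 of each, and it called 234 genes in all, where limma called 4 and edgeR 2. Leaving out single libraries gave 0 calls among the 10 genes and in the lists of further microcephaly loci, centriole assembly, pericentriolar material, Knl1 partners, microcephalin partners and the centrosome-loss response, and 1 to 4 calls over all genes. Marker lists of dividing, stem, neutrophil and erythroid cells were not recounted in this way. The median log2 fold change of the 10 genes, 1.55, was 0.83 with a pseudocount of 16, 0.63 by edgeR and 0.60 by DESeq2, and 0.60 to 1.87 when a library was left out. Directions turned for Mcph1 (-0.58 to 1.34 when a library was left out), Cdk5rap2 (-0.51 to 0.72), Cep152 (-1.06 to 2.97) and Plk4 (-0.98 to 1.002, and -0.41 by edgeR and -0.45 by DESeq2). The cause was not tested. Same-numbered libraries did not deviate together (correlations of deviations -0.0139, 0.0176 and -0.0295). With 3 libraries per genotype, these values do not tell whether same-numbered libraries were prepared together, which the labels do not state. With the replicate block, limma called 3 genes in all and 0 of the 10, and Mcph1 stayed at 0.33.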
